A study of Mus musculus with 2 samples.

Results

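The Ifi200 family was followed through 10 listed genes of mouse chromosome 1 (Ifi203, Ifi204, Ifi205, Ifi207, Ifi208, Ifi209, Ifi211, Ifi213, Ifi214 and Mndal), out of 55487 genes in the deposited count table. The family was chosen by the LPS+LCC-12 to LPS ratios seen earlier in these same counts, and its genes were then taken by symbol, so all of their values are a description. All 10 were found in the table, and each had at least 50 counts in its higher library. The sequenced RNA came from sorted small peritoneal macrophages, which live in the cavity of the abdomen, of endotoxemic male SWISS mice, an outbred stock. The first group, LPS+LCC-12, was a pool of 66967 cells from 8 mice, and the second, LPS, was a pool of 102283 cells from 7 mice. Both groups were 5 weeks old, received 20 mg/kg of Escherichia coli lipopolysaccharide (LPS) into the peritoneum and 30 mL/kg of saline under the skin 6 h later, and were killed 22 h after LPS. The LPS+LCC-12 mice also received 0.3 mg/kg of LCC-12, a compound known to bind copper in mitochondria, 6 h after LPS. Mice without LPS were not analysed here. Each group was 1 library, so no test was possible, and every difference is between these libraries only.

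Ifi200 proteins, also called PYHIN proteins, typically pair an N-terminal pyrin domain, which binds other pyrin domains, with C-terminal HIN domains, which bind double-stranded DNA. Which of these domains each listed member encodes was not examined here. Interferons induce many of the genes, and the proteins are known in mouse macrophages as sensors of DNA and as nuclear regulators of transcription and growth. The mouse family is a tandem array of duplicated genes that differs between strains. Interferon signalling reaches such genes through the factor ISGF3, a complex that holds STAT2 and IRF9 and binds the interferon-stimulated response element (ISRE) in promoters.

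Promoters were available from RefSeq (GRCm38.p6) for 9 of the 10 members, all but Ifi204. They are shown because they sort the members into groups of like sequence. The ISRE core was searched as GAAA, any 2 bases and GAAA on both strands in the 250 bases before each transcript start. It was present in 8 of the 9 members, against 936 of 27025 genes, and in 2.98% of 32851 promoters of the same length. The exact letters GAAATCGAAA were picked as the commonest match in the members themselves. They were present in 6 members and in 13 of 27025 genes in all, which is a description only. In the lines that follow, the capitals mark the ISRE letters, with 50 bases before and 10 after them, all outside annotated exons.
Ifi208, chr1:173673557-173673626, + strand: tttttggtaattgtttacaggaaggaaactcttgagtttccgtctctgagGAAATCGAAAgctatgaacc
Ifi213, chr1:173599326-173599395, - strand: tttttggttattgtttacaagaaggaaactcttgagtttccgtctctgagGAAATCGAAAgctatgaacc
Ifi214, chr1:173536017-173536086, - strand: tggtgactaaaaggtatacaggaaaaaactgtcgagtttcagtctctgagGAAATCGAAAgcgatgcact
Ifi209, chr1:173630730-173630799, + strand: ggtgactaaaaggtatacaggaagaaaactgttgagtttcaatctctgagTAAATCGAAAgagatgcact
Ifi211, chr1:173913064-173913133, - strand: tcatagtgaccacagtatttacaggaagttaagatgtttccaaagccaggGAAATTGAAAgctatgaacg
Ifi207, chr1:173741831-173741900, - strand: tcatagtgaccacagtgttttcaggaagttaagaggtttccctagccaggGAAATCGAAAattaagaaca
Ifi205, chr1:174031870-174031939, - strand: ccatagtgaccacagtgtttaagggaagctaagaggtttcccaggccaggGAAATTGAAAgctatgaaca
Ifi203, chr1:173942508-173942577, - strand: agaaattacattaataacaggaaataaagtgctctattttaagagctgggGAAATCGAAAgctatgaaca

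The promoters fell into 4 groups of like sequence. Those of Ifi208 and Ifi213 were 99.1% identical over 235 aligned bases, and those of Ifi214 and Ifi209 were 95.2% identical over 249. The Ifi209 promoter differs from the ISRE of Ifi214 by G1T, counted from the first base of the motif, and its capitals mark these aligned bases; it was the member with no match in the window. Ifi211 and Ifi207 were 87.8% identical over 246 bases, and Ifi211 and Ifi205 93.4% over 151. Ifi203 and Mndal were 97.5% identical over 239 bases, and the 70 bases shown for Ifi203 are the same in Mndal. The Mndal copy (173880204 to 173880273) lies within the annotated span of Mndal (173849126 to 173942491) and overlaps an annotated Mndal exon. The motif began 35 to 79 bases before the start in 7 of the 8 members, and 134 bases before it in Ifi205. A second Mndal start had the letters on the opposite strand, beginning 54 bases before it. Ifi203 also has a second start, whose window held no ISRE letters. The Ifi203 bases shown lie within the annotated span of that gene (173920407 to 173942672), though outside its exons. The gamma-interferon site, searched as TTCNNNGAA, was in none of the 9 members, in 2197 of 27025 genes and in 7.02% of all promoters. The composite of an ETS and an IRF site was searched as GGAA, any 2 bases and GAAA. It was in none of the 9 members, in 724 of 27025 genes and in 2.30% of all promoters. A match of letters is a description of the reference sequence, not a measurement of binding.

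**Figure D1:**
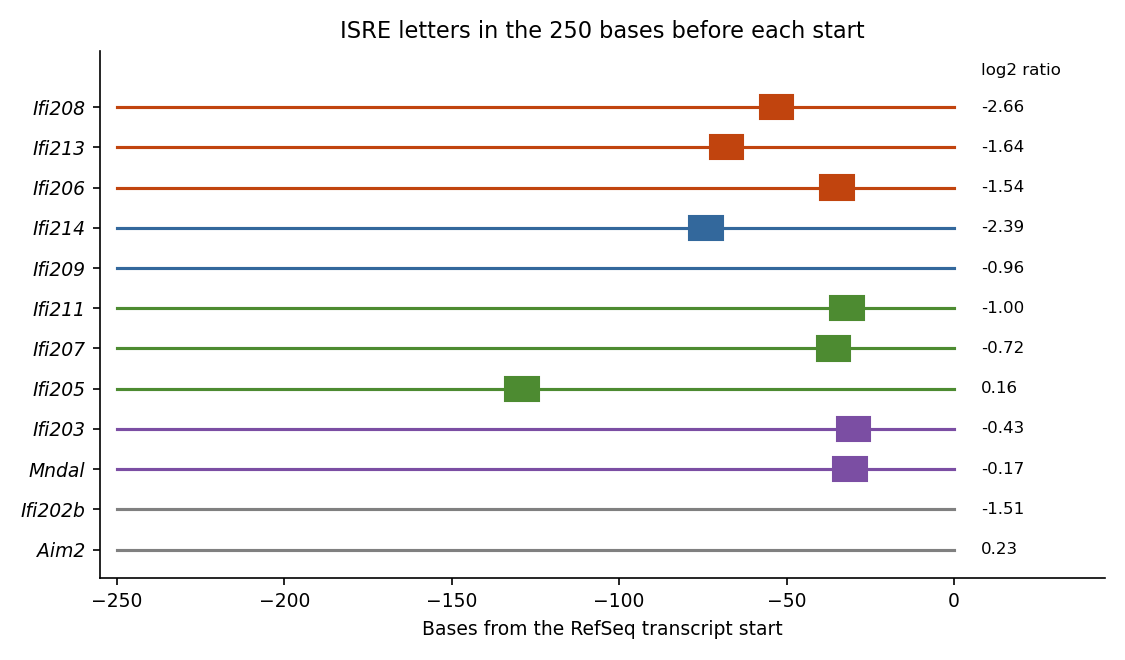
Position of the ISRE letters on the gene's own strand (boxes) in the 250 bases before the RefSeq start, for the 9 members with a promoter and for Ifi206, Ifi202b and Aim2. Colours mark groups of like promoters (grey: none), the upstream Mndal start is drawn, and the number at the right is the log2 ratio, LPS+LCC-12 over LPS; members of 1 promoter group run from -2.39 for Ifi214 to -0.96 for Ifi209.

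The libraries were deep and of similar size, with 47721888 counts for LPS+LCC-12 and 50618409 for LPS. Values were scaled by TMM, a factor that balances most genes, and are given as CPM, counts scaled to library size. The log2 ratio is LPS+LCC-12 over LPS, with 0.5 counts added, and each ratio has an exact 95% Clopper-Pearson interval of the split of its counts, which covers counting error only. Genes with 50 or more counts in whichever library had more were called lower or higher past a 2-fold limit. Of 13482 such genes, 6.65% were called lower and 4.01% higher, with a median log2 ratio of 0.02 and quartiles of -0.27 and 0.26. Of these calls 896 were lower and 540 higher, and scaling by general macrophage markers made them 1364 and 335. General macrophage markers were all detected, and 0 of 8 were past 2-fold (summed CPM 9000 with LPS+LCC-12 and 7543 with LPS). Scaling by these markers used their summed counts, so Lyz2, with the most counts, weighed most in it. Lyz2 had 218056 counts with LPS+LCC-12 and 152290 with LPS (ratio 0.56), while the median ratio of the 8 markers was 0.004. Markers of small peritoneal macrophages were higher for 6 of 8 (summed CPM 713 and 486 in the same order) and of large peritoneal macrophages for 6 of 8 (769 and 237). Gata6, the factor that defines large peritoneal macrophages, had 720 and 529 counts, so transcripts of the other peritoneal type were present in the sort.

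The family as a whole was lower with LCC-12. Summed over the 10 genes, 31286 counts were found in the LPS+LCC-12 library and 58991 in the LPS library, which are 647 and 1181 CPM. The sum was thus 1.83-fold lower (log2 ratio -0.87, interval -0.89 to -0.85). A read moved from one member to another leaves this sum as it is, but a read dropped, counted more than once or given to a gene outside the list does not. Of the 10 members, 4 were called lower and 0 higher, beside the 6.65% and 4.01% of all genes. All 10 are protein-coding, and of 11220 protein-coding genes with enough counts 4.46% were called lower and 3.81% higher. The median log2 ratio of the members was -0.96, against 0.02 over all genes with 50 or more counts. For 9 members the whole counting interval lay below 0, which was so for 32.9% of all these genes, and for 1 it lay above 0, as for 36.5%. In pooled cells, fewer cells of a kind that expresses these genes and less RNA per cell cannot be told apart.

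**Figure D2:**
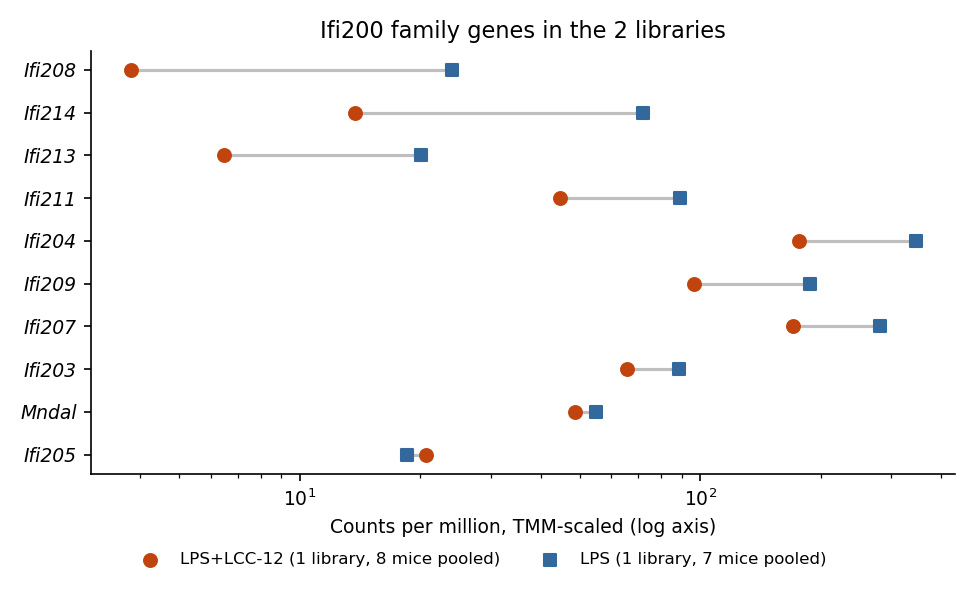
CPM (log axis) of the 10 members in the LPS+LCC-12 library (circles) and the LPS library (squares), ordered by their ratio. The distance between the markers is widest for Ifi208 and Ifi214, and Ifi205 is the 1 gene whose LPS+LCC-12 value lies to the right, an order that turns when the libraries are scaled by macrophage markers.

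Ifi208 had the lowest ratio. The gene (ENSMUSG00000066677, chromosome 1, 173673675 to 173698395, + strand) had 183 counts in the LPS+LCC-12 library and 1198 in the LPS library, or 3.78 and 24.0 CPM. It was 6.33-fold lower (log2 ratio -2.66, interval -2.90 to -2.44). Ifi214 (ENSMUSG00000070501, 173519717 to 173535957, - strand) had 666 counts with LPS+LCC-12 and 3603 with LPS, or 13.8 and 72.1 CPM. It was 5.24-fold lower (log2 ratio -2.39, interval -2.51 to -2.27), and its interval overlapped that of Ifi208. Ifi213 (ENSMUSG00000073491, 173566283 to 173599274, - strand) followed with 313 counts with LPS+LCC-12 and 1005 with LPS. It was 3.11-fold lower (log2 ratio -1.64, interval -1.82 to -1.45), an interval apart from both. These 3 genes were also the only members past a 3-fold limit. Among 13482 genes with 50 or more counts, 340 were at least 3-fold lower and 195 at least 3-fold higher.

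A second set of members lay close to the 2-fold limit. Ifi204 encodes p204, the mouse protein most often compared with human IFI16 as a sensor of DNA. The gene (ENSMUSG00000073489, 173747293 to 173766943, - strand) had 8513 counts with LPS+LCC-12 and 17215 with LPS, or 176 and 345 CPM. Its ratio of -0.97 (interval -1.01 to -0.93) was just short of the limit, although in counts it was the most abundant member in both libraries. Ifi209 (ENSMUSG00000043263), which RefSeq also lists as Pyhin1, had 4671 counts with LPS+LCC-12 and 9369 with LPS, a ratio of -0.96 (interval -1.01 to -0.91). Ifi211 (ENSMUSG00000026536) had 2156 counts with LPS+LCC-12 and 4459 with LPS, a ratio of -1.002 (interval -1.08 to -0.93). The intervals of Ifi211 and Ifi204, and of Ifi204 and Ifi209, overlapped, so their order cannot be read from these counts. Ifi211 was called lower and the other two were not, but these calls turn with the scaling. By total counts Ifi211 (ratio -0.96) was not called, by the upper quartile Ifi204 was (-1.0036), and by general macrophage markers Ifi204 (-1.22) and Ifi209 (-1.21) both were.

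The remaining members had smaller ratios. Ifi207 (ENSMUSG00000073490), the neighbour of Ifi204, had 8248 counts with LPS+LCC-12 and 14064 with LPS, or 171 and 282 CPM. Its log2 ratio was -0.72 (interval -0.76 to -0.68). Ifi203 (ENSMUSG00000039997) had 3174 counts with LPS+LCC-12 and 4414 with LPS, with a ratio of -0.43 (interval -0.50 to -0.36). Mndal, whose name marks its likeness to the human myeloid nuclear differentiation antigen, had 2361 counts with LPS+LCC-12 and 2736 with LPS. Its ratio of -0.17 (interval -0.25 to -0.09) was a 1.12-fold difference. Ifi205, known in mouse macrophages as a regulator of the inflammasome adaptor ASC, was the 1 member with a ratio above 0. It had 1001 counts with LPS+LCC-12 and 928 with LPS, or 20.7 and 18.6 CPM, a ratio of 0.16 (interval 0.03 to 0.29). That sign turned to -0.10 when the libraries were scaled by general macrophage markers, where Lyz2 weighed most. The direction of Ifi205 thus depends on the scaling. From Ifi209 to Ifi205, no neighbours in the order of ratios had overlapping intervals.

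Members of 1 promoter group did not share 1 ratio. Ifi214 and Ifi209 had ratios of -2.39 and -0.96, with intervals that did not overlap. Ifi208 and Ifi213 had -2.66 and -1.64, also apart, and both were called lower. In the third group Ifi211, Ifi207 and Ifi205 had -1.002, -0.72 and 0.16, and in the fourth Ifi203 and Mndal had -0.43 and -0.17. Whether the promoter letters have a part in these differences was not tested.

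**Figure D3:**
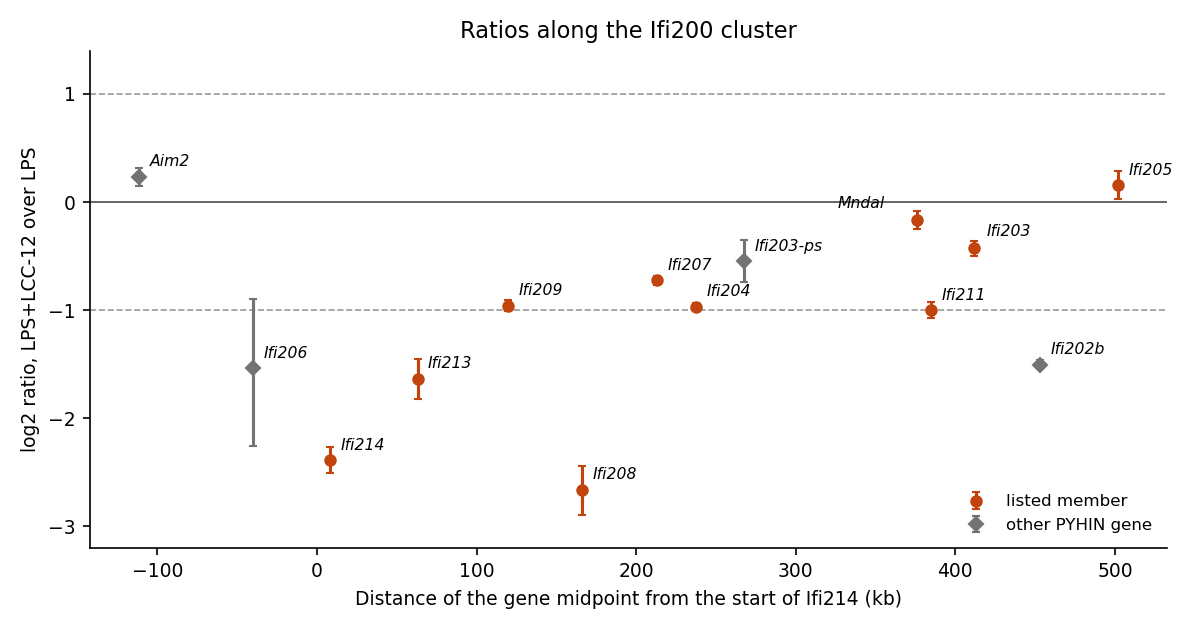
Log2 ratio (LPS+LCC-12 over LPS) of the 10 members (circles) and 4 other PYHIN genes (diamonds) against the distance of the gene midpoint from the start of Ifi214; bars are 95% counting intervals and dashed lines the 2-fold limits. Of the members, Ifi214, Ifi213 and Ifi208 lie lowest; toward the other end Mndal (-0.17), Ifi203 (-0.43) and Ifi205 (0.16) stand among Ifi211 (-1.002) and Ifi202b (-1.51).

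The members span 512.1 kb of chromosome 1 (173519717 to 174031810, GRCm38), with 8 on the - strand and 2, Ifi208 and Ifi209, on the + strand. Position and ratio went together only in part. Ifi214, Ifi213 and Ifi208 lie toward the same end of the array, but Ifi209 stands between Ifi213 and Ifi208 with a ratio of -0.96. Near the other end, Ifi202b had a ratio of -1.51 between Ifi203 (-0.43) and Ifi205 (0.16). Between the outermost members the annotation holds 9 further genes, of which 3 had 50 or more counts: Ifi202b, Ifi203-ps and Gm18445. Gm18445, an unprocessed pseudogene, had 56 counts with LPS+LCC-12 and 224 with LPS (ratio -1.94, interval -2.40 to -1.53). The other 6 were Gm7871 (19 and 22 counts in the same order), Gm18752 (0 and 15), Gm7897 (3 and 7), Gm44339 (0 and 3), and Gm44481 and Gm38050 with 0 in both.

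The other PYHIN genes in the annotation did not move as one. Ifi202b, which encodes a protein with HIN domains and no pyrin domain and is known in mouse as an antagonist of AIM2, had 5937 counts with LPS+LCC-12 and 17406 with LPS. It was 2.84-fold lower (log2 ratio -1.51, interval -1.55 to -1.46). Its promoter held no ISRE letters and 1 gamma-interferon site, beginning 148 bases before the start. Ifi206 had 26 counts with LPS+LCC-12 and 79 with LPS (ratio -1.54, interval -2.26 to -0.90), and its promoter was 99.6% identical to that of Ifi208 over 232 bases. Ifi203-ps, a pseudogene, had 358 counts with LPS+LCC-12 and 540 with LPS (ratio -0.55). Aim2, the cytosolic DNA sensor that assembles an inflammasome, had 2429 counts with LPS+LCC-12 and 2134 with LPS, or 50.2 and 42.7 CPM. Its ratio was 0.23 (interval 0.15 to 0.32), and neither the ISRE nor the gamma-interferon letters were in its window. Pyhin1 was listed as a separate gene but did not match by symbol, since it is a RefSeq synonym of Ifi209.

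Per kb of merged exon, the members differed widely in level. With LPS+LCC-12 the highest were Ifi207 with 49.8 CPM per kb, Ifi204 with 49.4, Ifi209 with 27.2 and Ifi211 with 24.97, and the lowest was Ifi208 with 0.720. With LPS the highest were Ifi204 with 96.8 CPM per kb, Ifi207 with 82.3, Ifi209 with 52.9 and Ifi211 with 50.02, and the lowest was Ifi213 with 2.94. The same 4 genes led in both libraries. Ifi208 was the eighth of the 10 with LPS (4.56 CPM per kb) and the last with LPS+LCC-12, and Ifi205 was the ninth with LPS (4.45) and the seventh with LPS+LCC-12 (4.95). The order depends on the length used, since merged exons count the bases of every annotated transcript. By the longest coding transcript, an alternative chosen after seeing the data, Ifi204 led in both libraries, with 76.7 CPM per kb with LPS+LCC-12 and 150 with LPS. By that length Ifi214 was the sixth with LPS (24.98 CPM per kb) and the eighth with LPS+LCC-12 (4.77).

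**Figure D4:**
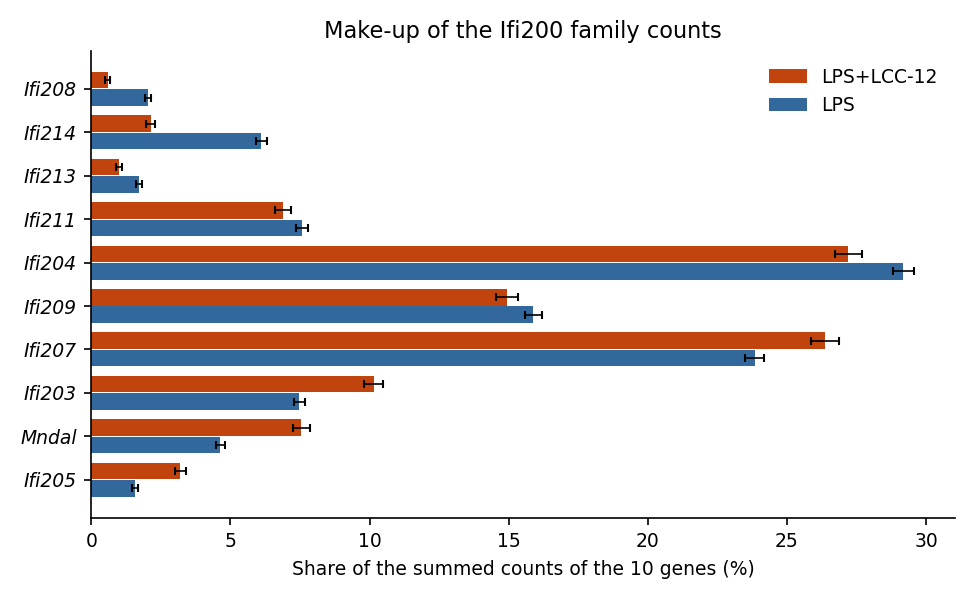
Share of the summed counts of the 10 genes held by each member in the LPS+LCC-12 library (upper bar) and the LPS library (lower bar); error bars are exact 95% binomial intervals of the counts. Ifi204 and Ifi207 hold the largest shares in both libraries, and the shares of Ifi207, Ifi203, Mndal and Ifi205 are larger with LPS+LCC-12.

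Within the family's own counts, the make-up shifted. Mndal held 7.55% of the family counts with LPS+LCC-12 (exact interval 7.26 to 7.84) and 4.64% with LPS (4.47 to 4.81). Ifi205 held 3.20% with LPS+LCC-12 (3.01 to 3.40) and 1.57% with LPS (1.47 to 1.68). In the other direction, Ifi214 held 2.13% with LPS+LCC-12 (1.97 to 2.29) and 6.11% with LPS (5.92 to 6.30). Shares within the family do not depend on the scaling of the libraries. Ifi204 and Ifi207 together made up the largest part in both: Ifi204 held 27.2% with LPS+LCC-12 and 29.2% with LPS, and Ifi207 26.4% and 23.8% in the same order.

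Near-identical copies limit how far single members can be told apart. Among GENCODE M21 transcripts, 56.9% of the 100-base windows of Ifi211 also occurred in another gene, 37.2% in Ifi205 and 19.6% in Ifi204. The share was 16.9% for Ifi209, all of it with Ifi214, 15.04% for Ifi205 and 10.7% for Ifi204. For the other 6 members it ran from 0.79% for Ifi207 to 7.29% for Ifi214. Ifi211 thus had the largest share of windows in common with other genes, and how the authors assigned reads that match several genes is not given in the sources used here. Exons of different genes overlapped little in the array: 4.27% of the exonic bases of Mndal and 0.55% of those of Ifi203 lay in another gene's exons. The reads came from outbred mice, the build in the submitters' processing notes is mm10, whose reference strain is C57BL/6J, and how well the reads match its Ifi200 copies was not tested.

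Some genes of the pathway that induces the family were lower. Of 32 interferon signalling genes, 26 had 50 or more counts, and 4 were called lower and 1 higher, with a median log2 ratio of -0.34. Those are 15.4% lower, beside 6.65% of all genes, and 3.85% higher, beside 4.01%. Usp18, which restrains the interferon receptor, was 4.70-fold lower with 1149 counts with LPS+LCC-12 and 5576 with LPS. Socs1, a feedback inhibitor of JAK kinases, was 3.70-fold lower, and Isg15, a ubiquitin-like modifier, 3.48-fold lower. Irf7, which amplifies type I interferon, had 10324 counts with LPS+LCC-12 and 23746 with LPS (ratio -1.16). Of genes for parts of ISGF3, Stat2 had a ratio of -0.99 (interval -1.04 to -0.94) and Irf9 -0.65, both within 2-fold. The receptor gene Ifnar1 had 12451 counts with LPS+LCC-12 and 12587 with LPS, a ratio of 0.03 (interval -0.01 to 0.07). Irf4, a factor of macrophage differentiation that is also in the small peritoneal list, was the 1 gene called higher (ratio 2.23). Ptpn6, a phosphatase that dampens signalling, and Socs3 had the most counts in the list over both libraries together, with ratios of -0.52 and -0.62. Interferon genes themselves were hardly seen: Ifnb1 had 0 counts with LPS+LCC-12 and 5 with LPS, and Ifna2, Ifna4, Ifng and Ifnl3 had 0 in both.

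Genes of the DNA sensing pathways in which the proteins act lay on both sides of 0, and few were called. The list, labelled cytosolic in the figure of gene lists, also holds Aim2 and endosomal and output genes such as Tlr9 and Cxcl10. Of its 52 DNA sensing genes, 50 had 50 or more counts, and 3 were called lower and 0 higher, with a median of -0.10. The 3 are 6.0% of the list, near the 6.65% of all genes, and 28 ratios were below 0 and 22 above it. The 3 were the chemokine gene Cxcl10 (ratio -2.01), the endosomal DNA receptor gene Tlr9 (-1.20) and Irf7, which is also in the signalling list. Cgas, which senses DNA in the cytosol, had 879 counts with LPS+LCC-12 and 1096 with LPS (ratio -0.27, interval -0.40 to -0.14). Its partner Sting1, listed as Tmem173, had 498 and 541 counts in the same order (ratio -0.07, interval -0.25 to 0.10), a difference within counting error. Samhd1 and Ikbke, the genes with the most counts in the list, had ratios of -0.31 and -0.56. Trex1 was listed at 0 in both libraries, and 100% of its exonic bases lie within exons of Atrip on the same strand, so its 0 gives no level.

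**Figure D5:**
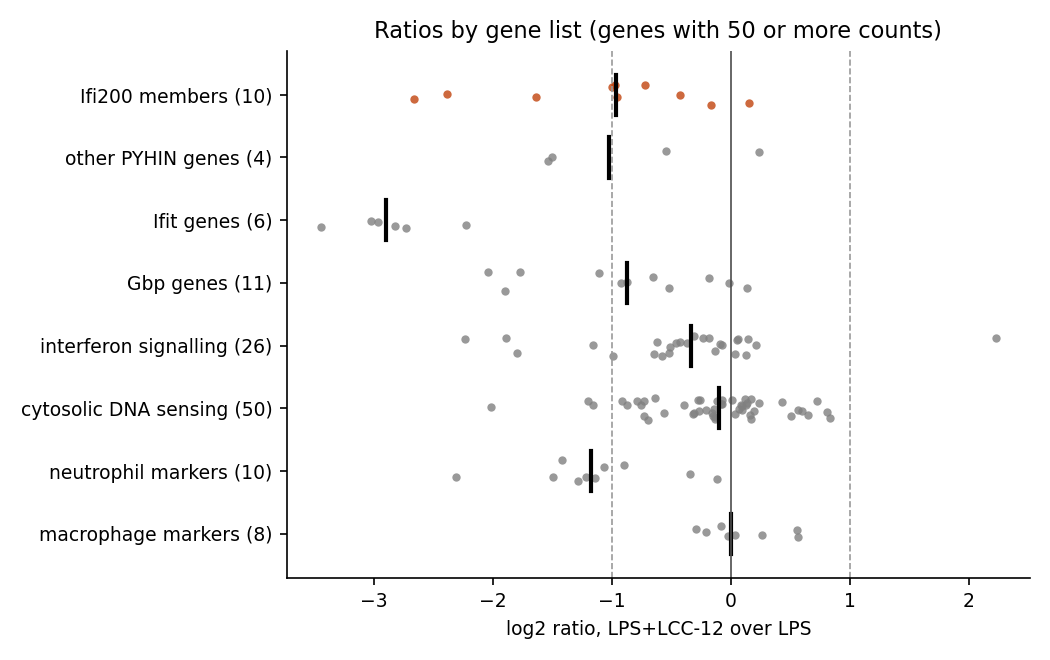
Log2 ratios (LPS+LCC-12 over LPS) of single genes with 50 or more counts, by list, with the number of genes in brackets; black bars are medians and dashed lines the 2-fold limits. The members' median is -0.96, the Gbp genes' -0.87 and the Ifit genes' -2.89.

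Other interferon-induced families, the guanylate-binding protein (Gbp) genes and the Ifit genes, were set beside the members. Of all genes with 50 or more counts, 6.65% were called lower. The members ran from -2.66 to 0.16, with 4 of 10 called lower. The Gbp genes, whose proteins attack vacuoles of microbes, ran from -2.04 to 0.14, with 4 of 11 called lower and a median of -0.87. The Ifit genes, whose proteins bind viral RNA, ran from -3.44 to -2.23, with 6 of 6 called lower and a median of -2.89. Of the members, Ifi208 and Ifi214 lay within the range of the Ifit genes, and the other 8 lay above it. With 1 library a group, the differences between the families were not tested.

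Markers of other cells differed between the same libraries. Their calls stand beside 6.65% lower and 4.01% higher of all genes with 50 or more counts. Of 10 neutrophil markers, 7 were called lower and 0 higher, with a median of -1.18, none at 0 counts, and a summed level of 3503 CPM with LPS+LCC-12 and 9271 with LPS. Of 8 monocyte markers, 5 were called lower and 1 higher, with a median of -1.11, none at 0 counts, and a summed level of 13231 CPM with LPS+LCC-12 and 7495 with LPS, opposite in sign to the median. The 1 called higher, Fn1, had 515430 counts with LPS+LCC-12 and 155522 with LPS. B cell markers were within 2-fold for 6 of 6. Mast cell markers were lower for 4 of 5 with enough counts (summed CPM 5.40 with LPS+LCC-12 and 15.2 with LPS), mesothelial markers for 4 of 4 (1.32 and 7.65 in the same order) and fibroblast markers for 3 of 4 (3.64 and 12.4). Wt1 and Pdgfra had 0 counts with LPS+LCC-12, and Lum had 0 in both libraries. T cell markers summed to 1.86 CPM with LPS+LCC-12 and 3.68 with LPS, NK cell markers to 2.58 and 2.56, and dendritic cell markers to 5.00 and 5.59. The part of these cells in the ratios of the Ifi200 genes was not tested.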

How the data were processed

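The deposited file held raw counts per gene, 1 column per library, which the authors had not normalized. Library codes in the labels gave each column its group. The aligner STAR and the build mm10 appear in the submitters' processing notes. The sources used here give no counting tool, strand setting or annotation. Per the labels' protocols, 10 ng of RNA gave stranded libraries with ribosomal depletion, 12 cycles of PCR and 100 bp read pairs.

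Symbols came from GENCODE M21 (GRCm38) for 55394 of 55487 gene IDs. Counts were scaled by TMM in edgeR 4.0.16 (R 4.3.3), and other steps used Python 3.11.15 with scipy 1.17.1 and Biopython 1.88. The code for ratios and intervals was checked on simulated counts with known changes and counting error only. Variation between mice and PCR copies was not simulated. Intervals and shares cover counting error only, since PCR copies are not independent molecules and variation between mice is not measured. The members and lists were chosen with earlier results of these data known. All members, other PYHIN genes, genes between the outermost members, a set of 9 pathway genes, of which 1 is not reported here, and, in each pathway list, up to 3 called genes in each direction and the 2 with the most counts are named. Promoters are from RefSeq (GRCm38.p6) and were compared by local alignment. Alternatives were DESeq2 1.42.0 scaling and other scalings, count minimums, fold limits, 5 added counts, means and members with few shared windows.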

Additional observations from a re-analysis of the deposited data

How the results depend on the processing

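No paired analysis was possible because each group was 1 library, and no library could be left out. Of 50 alternative ratios of single members, 39 stayed within the counting interval and 11 moved, 10 of them with scaling by general macrophage markers. That scaling moved the median of all genes from 0.02 to -0.23, and gave medians of -1.22 for the members, -1.28 for the other PYHIN genes, -1.13 for the Gbp, -3.15 for the Ifit, -0.59 for the interferon signalling and -0.35 for the DNA sensing genes. It gave -1.12 for the summed members, against -0.83 by total counts and -0.90 by the upper quartile. Total counts gave -0.30 for interferon signalling. Means were -1.08 for the members and -0.40 for interferon signalling. A minimum of 200 counts gave -0.55 for the other PYHIN and -0.99 for the Gbp genes, and a minimum of 1 gave -0.40 for interferon signalling. The members called lower were 3 by total counts, 5 by the upper quartile and 6 by macrophage markers. Of 13482 genes with 50 or more counts, 842, 957 and 1364 were lower and 588, 494 and 335 higher, in the same order. The members called lower were 7 at 1.5-fold, and 3 at 3-fold, with the whole interval beyond 2-fold or without Ifi211. Among all genes, 896 were lower and 540 higher; these became 1364 and 335 by macrophage markers, 2387 and 1462 with a minimum of 10, 438 and 298 with 200, 6439 and 4143 with 1, 1794 and 1304 at 1.5-fold, 340 and 195 at 3-fold, and 521 and 299 with the whole interval beyond 2-fold. In protein-coding genes 500 were lower and 428 higher. The causes were not tested.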

Other observations

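The exact letters GAAATCGAAA were in the promoters of 13 genes, of which 12 matched the count table and 11 had 50 or more counts. These genes were listed after the members' promoters had been seen. Of the 11, 5 were at least 2-fold lower with LCC-12 and 1 was at least 2-fold higher, with a median log2 ratio of -0.72. The 5 were Gm26797 and the PYHIN genes Ifi206, Ifi208, Ifi213 and Ifi214. Ifi208, Ifi213 and Ifi214 are members, whose ratios were known when the family was chosen. In all, 7 of the 11 were PYHIN genes. The other 4 were Parp11, a mono-ADP-ribosyltransferase, with 1157 counts with LPS+LCC-12 and 1575 with LPS (ratio -0.40), Pnrc1, a nuclear receptor coactivator, with 4880 and 7908 (ratio -0.65), Gm26797 with 22 and 62 (ratio -1.43), and Serpinb6a, a protease inhibitor, with 4077 and 1499 (ratio 1.49), in the same order. Over all 328 genes with 50 or more counts and the wider letters (GAAA, any 2 bases, GAAA) in a promoter, 43 were at least 2-fold lower and 8 at least 2-fold higher, with a median of -0.04. These genes include PYHIN genes, whose ratios were known when the family was chosen. Without the PYHIN genes, a choice made after seeing the data, 38 of 319 were at least 2-fold lower, or 11.9%, and 8 at least 2-fold higher, with a median of -0.02, beside 6.65% lower and 4.01% higher of all genes with 50 or more counts.

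Past Ifi205, outside the array, the olfactory receptor gene Olfr433 had 56 counts with LPS+LCC-12 and 144 with LPS (ratio -1.31, interval -1.79 to -0.86), and its neighbour Olfr432 had 19 and 33 in the same order. These genes were noticed after their values were seen.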
